A study of Mus musculus with 2 samples.

Results

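Interferon-stimulated genes were examined in regenerating mouse tibialis anterior muscle of Mef2a knockout and wild type animals. The set holds 45 genes, chosen by symbol as a known response group, out of 19938 genes with a probe set of their own on the array. It comprises 27 type I interferon response genes, 9 GTPases induced by interferon gamma, and 9 genes of interferon signalling. For each gene the probe set with the highest mean was used. Of the 45 genes, 38 had a probe set annotated to them alone and 35 reached a floor of 4.39 (log2), the midpoint of the table's values, in at least 1 pool.

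The data are 2 arrays. The labelled KO pool held RNA of 5 Mef2a -/- mice and the WT pool RNA of 5 Mef2a +/+ mice, all of a 129Sv/C57BL6 background, 2 to 4 months old and of both sexes. In every mouse 50 µl of 10 µM cardiotoxin, a venom peptide that destroys muscle fibres, had been injected into the right tibialis anterior, and the muscle was taken 7 days later. There was 1 array per genotype, so no value below has a replicate error and no difference was tested. The labels do not say in which cells or by which change Mef2a is inactivated.

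Interferons are secreted proteins that alert cells to infection and damage. Type I interferons bind a receptor of IFNAR1 and IFNAR2, and the kinases JAK1 and TYK2 then activate a complex that holds STAT2 and IRF9 and binds a promoter element called ISRE. Interferon gamma binds IFNGR1 and IFNGR2 and acts through JAK1 and JAK2, and many of its target genes carry an element called GAS. The proteins made in response degrade viral RNA, block translation or attack the membranes around intracellular microbes. In injured muscle, macrophages are among the cells that carry these receptors.

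Both elements can be looked for in the reference promoters of the genes, which are given here because the genes are grouped by this route of induction. RefSeq windows of GRCm38.p6, from 250 bases before to 50 bases after an annotated start, were found for 36 of the 45 genes. The ISRE was searched as the letters GAAANNGAAA and the GAS element as TTCNNNGAA, on both strands. ISRE letters stood in a window of 19 of the 36 genes (52.8%), against 3.99% of the 27025 genes with a window. By group they stood in 11 of 19 type I response genes, 7 of 8 gamma-induced GTPases and 1 of 9 signalling genes. GAS letters stood in 14 of 36 genes (38.9%), against 9.55% of all genes, and in Bst2 they overlapped ISRE letters. They were found in 6 of 19 type I response genes, 4 of 8 gamma-induced GTPases and 4 of 9 signalling genes. The letters thus do not divide the groups by route of induction, and ISRE letters were most frequent in the GTPases. The MEF2 consensus was searched as YTAWWWWTAR, where Y is C or T, W is A or T and R is A or G. It stood in windows of 2 of the 36 genes, or 5.56% against 3.70% of all genes. These were 1 type I response gene and 1 gamma-induced GTPase. These are matches of letters only, and no binding was measured.

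The sequences are the 160 bases before the annotated start for the type I response genes Rsad2, Ifit3 and Ifit2 and the GTPases Gbp3 and Irgm1, which had the most negative differences of their groups. Zbp1 and Iigp1, the GTPase with the lowest difference, rank with them but have no window and are not shown. Trim30a, the type I effector with the highest difference, and Isg15 were added after their values were seen. Capitals mark ISRE letters, and GAS letters did not fall within these stretches. Each is read from 5′ to 3′ along its gene, and where a gene had several starts the one with the most ISRE letters, or else the first listed, was taken.
Rsad2 (chr12:26456453-26456612, minus strand): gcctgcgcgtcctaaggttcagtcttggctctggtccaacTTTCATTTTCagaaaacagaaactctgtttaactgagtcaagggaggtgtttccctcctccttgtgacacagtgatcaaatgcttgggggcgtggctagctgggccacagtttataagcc
Ifit3 (chr19:34583369-34583528, plus strand): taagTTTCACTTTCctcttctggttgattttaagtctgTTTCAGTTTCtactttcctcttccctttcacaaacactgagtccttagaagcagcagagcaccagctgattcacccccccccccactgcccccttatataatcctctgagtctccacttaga
Ifit2 (chr19:34550534-34550693, plus strand): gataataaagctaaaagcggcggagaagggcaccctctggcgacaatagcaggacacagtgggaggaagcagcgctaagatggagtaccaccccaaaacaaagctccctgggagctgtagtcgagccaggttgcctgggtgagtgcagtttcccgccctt
Gbp3 (chr3:142559884-142560043, plus strand): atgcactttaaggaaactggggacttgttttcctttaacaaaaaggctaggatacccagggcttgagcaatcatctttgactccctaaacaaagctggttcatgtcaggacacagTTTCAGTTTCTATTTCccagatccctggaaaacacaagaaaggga
Irgm1 (chr11:48871421-48871580, minus strand): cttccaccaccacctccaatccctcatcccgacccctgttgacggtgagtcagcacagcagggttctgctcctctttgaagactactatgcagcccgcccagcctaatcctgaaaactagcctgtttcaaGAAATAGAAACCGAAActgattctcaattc
Trim30a (chr7:104465194-104465353, minus strand): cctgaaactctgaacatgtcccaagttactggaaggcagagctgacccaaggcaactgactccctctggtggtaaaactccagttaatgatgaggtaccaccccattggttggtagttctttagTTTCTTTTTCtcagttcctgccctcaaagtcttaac
Isg15 (chr4:156200819-156200978, minus strand): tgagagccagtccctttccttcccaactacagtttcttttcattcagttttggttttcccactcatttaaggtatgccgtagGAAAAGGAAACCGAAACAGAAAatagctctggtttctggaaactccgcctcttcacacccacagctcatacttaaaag

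In Ifit3 a pair of separate ISRE matches lay at bases -156 and -122 before the start. Isg15 held 3 matches that overlap into a single run. In Gbp3 and Irgm1 a pair of overlapping matches lay close to the start, at bases -45 and -30 (first base). Ifit2 held no ISRE letters in either of its 2 windows, and its GAS letters lay outside the stretch shown.

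**Figure D1:**
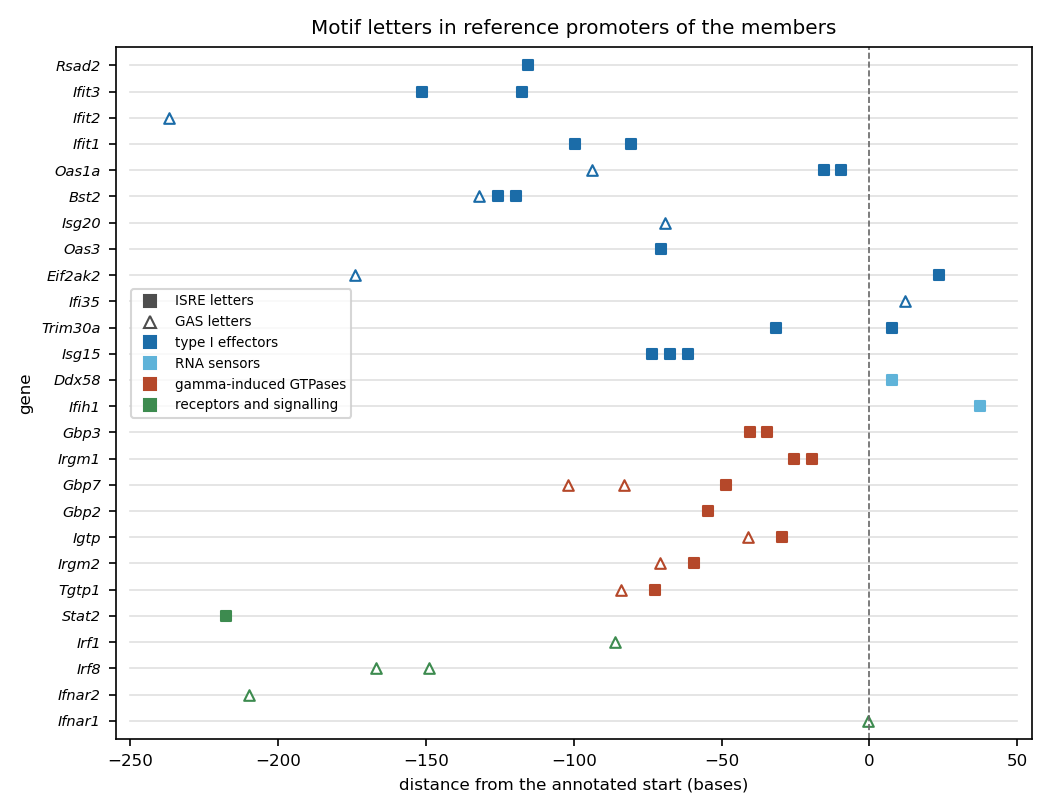
Place of ISRE letters (filled squares) and GAS letters (open triangles) in the RefSeq promoter windows of the genes that hold either, plotted as distance in bases from the annotated start. Colours give the group, and within a group genes run from the lowest to the highest difference between the pools, those without a probe set of their own last. The 7 GTPases with ISRE letters hold them between bases -77 and -15.

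The 35 genes at the floor did not move as one set. In the labelled KO pool 23 were lower (65.7%), 11 higher and 1 equal, where 44.5% of the 11787 genes at the floor were lower and 53.3% higher. Past 1.5-fold, 3 were lower (Rsad2, Iigp1 and Ifit3), or 8.57% against 1.9% of all genes, and 2 were higher (Ifnar1 and Ifngr1), or 5.71% against 6.45%. Past 2-fold there were 0 of either kind, against 0.187% of all genes lower and 1.7% higher. At a laxer limit of 0.32 (log2) there were 11 lower and 6 higher, against 10.3% and 16.7% of all genes. Their median difference, labelled KO minus WT, was -0.078 on the log2 scale, against 0.026 over all genes at the floor. By group, the medians were -0.11 for 22 type I response genes, -0.42 for 4 gamma-induced GTPases and 0.24 for 9 signalling genes.

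**Figure D2:**
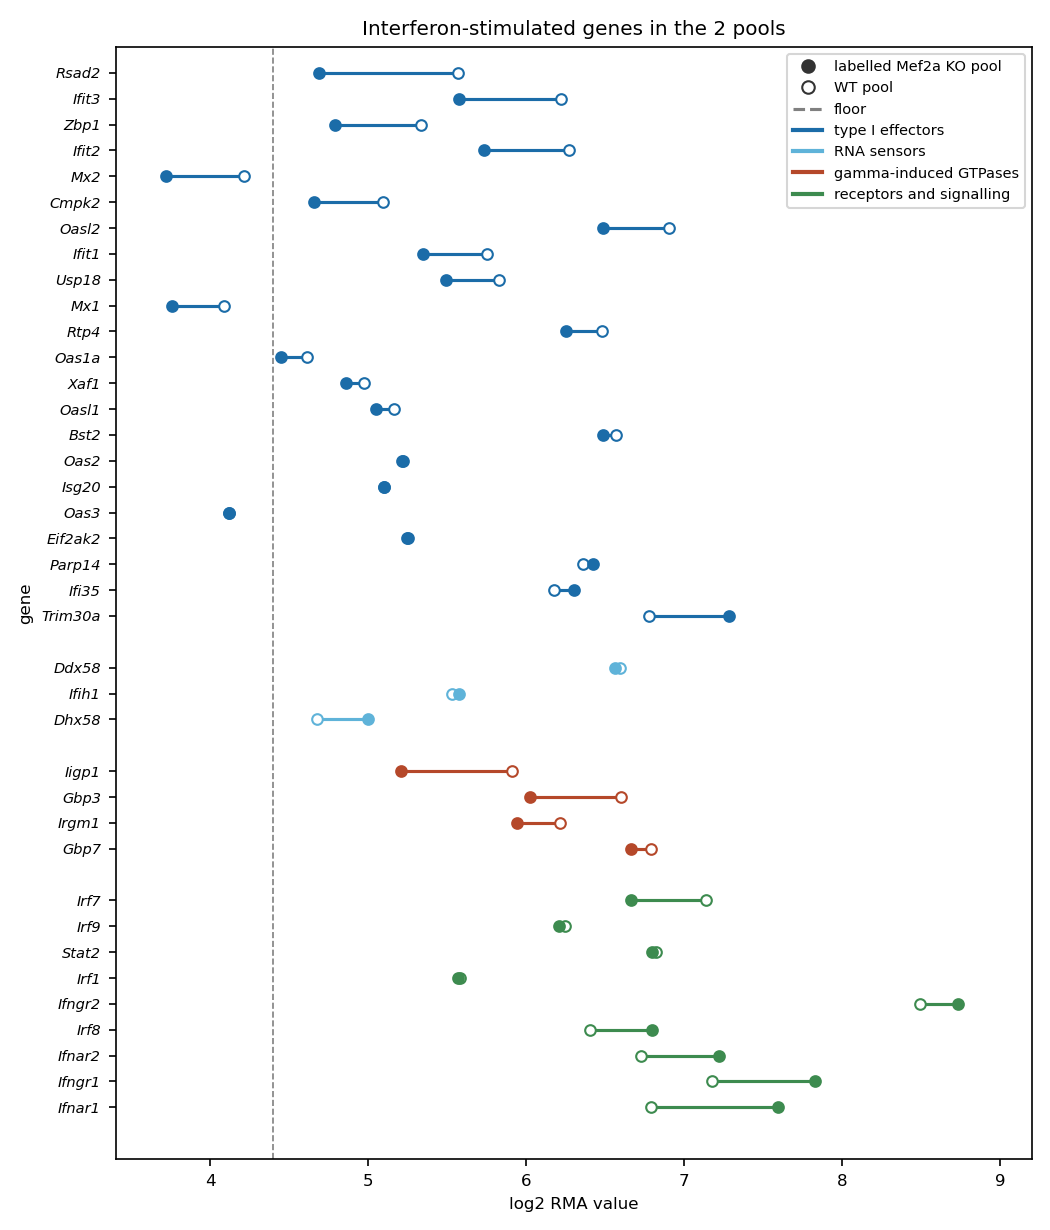
Log2 RMA value of each gene with a probe set of its own in the labelled Mef2a KO pool (filled) and the WT pool (open), 1 array each. Rows are grouped by role and ordered from the lowest difference to the highest. Filled points lie left of open ones for Rsad2 (4.69 and 5.57) and the other leading effectors and GTPases, and right of them for the 4 receptor subunits.

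The type I effectors include proteins that act on viral RNA and on its translation. The IFIT proteins bind foreign RNA and stop its translation, and all 3 IFIT genes were lower. Ifit3 read 5.57 in the labelled KO pool and 6.22 in the WT pool, a difference of -0.65 or 1.57-fold lower. Its near-identical copy Ifit3b may share its signal. The probe set of Ifit3b itself, named after its value was seen, read 3.11 in both pools, below the floor. For Ifit2 the values were 5.73 and 6.27 in the same order (-0.53), and for Ifit1 5.35 and 5.75 (-0.41). All 3 were lower under every alternative in which they were counted.

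Rsad2 encodes viperin, an enzyme that makes a chain-terminating nucleotide against viral polymerases. It had the lowest difference of the 35 interferon-stimulated genes at the floor, with 4.69 in the labelled KO pool against 5.57 in the WT pool, or 1.84-fold lower. Of the 500 genes of nearest mean level, 0.2% were as far below zero. Cmpk2, a nucleotide kinase gene next to it on chromosome 12, read 4.66 and 5.10 (-0.44). Both genes of this pair were thus lower, Cmpk2 by less than 1.5-fold.

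Zbp1, a sensor of Z-form nucleic acid that can trigger cell death, read 4.79 in the labelled KO pool and 5.33 in the WT pool (-0.54). Usp18, the protease that removes ISG15 from proteins and dampens the type I receptor, read 5.49 and 5.83 (-0.34). Rtp4 read 6.25 and 6.48 (-0.22). Each of these was lower by less than 1.5-fold. Mx1 and Mx2, which encode antiviral GTPases of the dynamin family, lay below the floor in both pools, at 3.76 and 3.72 in the labelled KO pool and 4.09 and 4.21 in the WT pool.

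The OAS enzymes make a short RNA that switches on an RNA-degrading nuclease. Oasl2, an OAS-like gene, differed most, with 6.48 in the labelled KO pool and 6.90 in the WT pool (-0.42). Oasl1 differed by -0.11, Oas1a by -0.16 and Oas2 by -0.0092, while Oas3 lay below the floor at 4.12 in both pools. The sign was not stable for all of them. A probe set shared by Oas1a and Oas1g read 5.29 and 5.14 (0.15 higher in the labelled KO pool), and Oas2 turned to 0.0013 with a trend on mean level removed.

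Other effectors were close between the pools or higher in the labelled KO pool. Trim30a, a ubiquitin ligase gene that restrains Toll-like receptor signalling, went furthest up among them, with 7.28 against 6.77 in the WT pool (0.51, or 1.42-fold). Ifi35 differed by 0.13 and Parp14, an ADP-ribosyl transferase gene, by 0.061. Bst2, which encodes the virus-retaining protein tetherin, differed by -0.078, Xaf1 by -0.11 and Eif2ak2, the gene of the RNA-activated kinase PKR, by 0.0062. Isg20, an exonuclease gene, had the same value of 5.10 in both pools. Such equality was not particular to it, since 1961 probe sets (5.52% of the array) held 1 value in both pools. The 19 effectors at the floor comprised 14 lower, 4 higher and 1 equal, with a median of -0.16. Past 1.5-fold 2 were lower and 0 higher. Of all genes at the floor 44.5% were lower by any amount, 1.9% past 1.5-fold lower and 6.45% past 1.5-fold higher.

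The cytosolic RNA sensors act in the start of interferon production, or regulate it, and are themselves interferon-induced. Ddx58, which encodes RIG-I, read 6.56 in the labelled KO pool and 6.59 in the WT pool. Ifih1, the MDA5 gene, read 5.57 and 5.53. Dhx58, the LGP2 gene, was higher, with 5.00 against 4.68 (0.32, under 1.5-fold). Ddx58 was the lowest of the 3, at -0.030, and all 3 lay within 1.5-fold.

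The GTPases induced by interferon gamma gather on vacuoles that hold intracellular microbes and break them open, or regulate those that do. The 4 with probe sets of their own were all lower. Iigp1, an effector GTPase of the immunity-related family, read 5.21 in the labelled KO pool against 5.91 in the WT pool (-0.70, or 1.63-fold lower), and 2% of the 500 genes of nearest mean were as far below zero. Gbp3, a guanylate-binding protein gene, read 6.02 and 6.60 in the same order, or 1.49-fold lower. Irgm1, a regulator within the immunity-related family, read 5.94 and 6.21 (-0.27), and Gbp7 read 6.66 and 6.79 (-0.12).

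The remaining 5 GTPases share their probe sets with other genes, so no value is theirs alone. The probe set of Irgm2 and Igtp read 5.63 in the labelled KO pool and 5.85 in the WT pool (-0.22), and that of Gbp2 and Gbp2b 5.49 and 5.67 (-0.18). A pair of probe sets of Tgtp1 and Tgtp2 each differed by -0.16. The one of Ifi47 and an olfactory receptor gene was below the floor in both pools (-0.17). All 5 shared probe sets were thus lower, by less than 1.5-fold. With the shared probe sets that reached the floor included, and only the brighter Tgtp one, the median of the GTPases was -0.22. Isg15, whose product is attached to proteins like ubiquitin, shares its probe set with Gm9706, which read 4.65 in both pools, and Ifi44 had no annotated probe set here.

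The receptor subunits were higher in the labelled KO pool, where the GTPases and leading effectors were lower. Ifnar1, a chain of the type I receptor, read 7.59 in the labelled KO pool against 6.79 in the WT pool (0.80, or 1.74-fold higher). Ifnar2, its partner chain, read 7.22 and 6.73 (0.49). Ifngr1, the ligand-binding chain of the gamma receptor, read 7.83 and 7.18 (0.65, or 1.57-fold higher), and Ifngr2 read 8.73 and 8.49 (0.24). All 4 were higher, also under each alternative in which they were counted, with a median of 0.57. Of all genes at the floor 53.3% were higher, and 6.45% past 1.5-fold. Among the 500 genes of nearest mean, 3.2% were as far above zero as Ifnar1 and 6.2% as far as Ifngr1. For Ifnar2 this share was 10.6% and for Ifngr2 28%.

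Factors downstream of the receptors were mostly close between the pools. Stat2 read 6.80 in the labelled KO pool and 6.82 in the WT pool, Irf9 6.21 and 6.25, and Irf1, a factor induced by gamma, 5.57 and 5.58. A further Irf1 probe set of lower mean read 4.45 and 4.61. Irf7, the factor that amplifies interferon alpha production and is itself a strong type I target, was lower, with 6.66 against 7.13 (-0.47), and 2.4% of the 500 genes of nearest mean were as far below zero. Irf8, which is needed for the monocyte lineage, was higher, with 6.79 against 6.40 (0.39). Neither passed 1.5-fold. The 5 factors had a median of -0.027, so the 0.24 of the whole signalling group came with its receptors, without which the median changed sign.

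**Figure D3:**
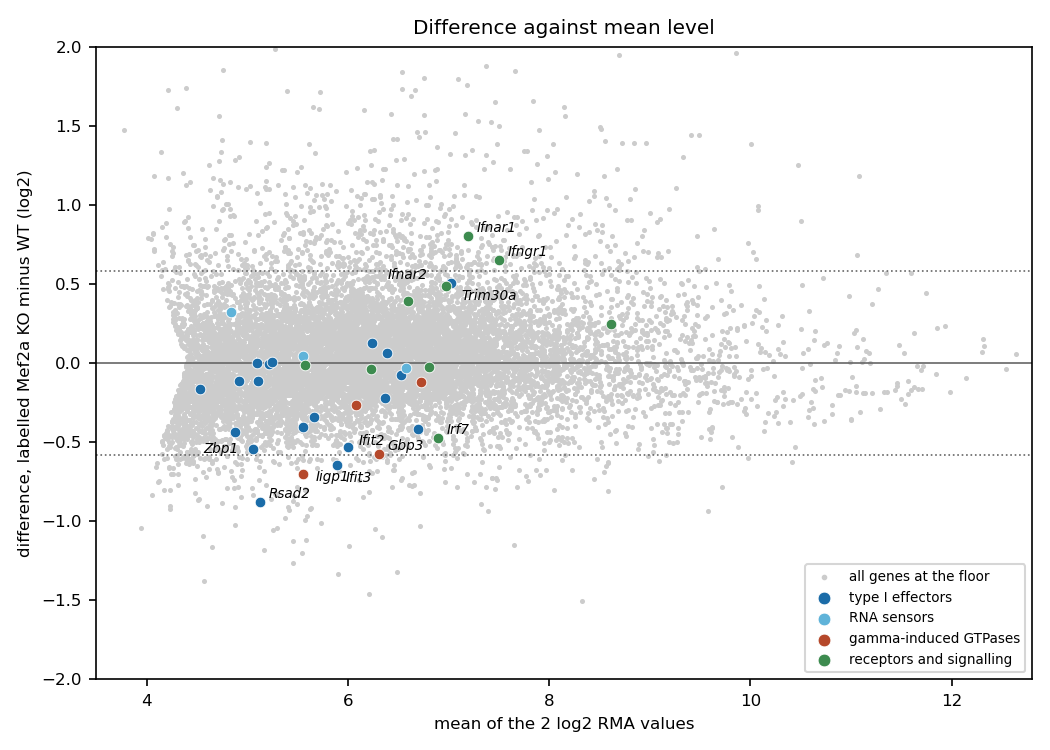
Difference in log2 RMA value, labelled Mef2a KO minus WT, against the mean of both values, for the 11787 genes at the floor (grey) and the 35 interferon-stimulated genes (coloured by role). Dotted lines mark 1.5-fold, and 16 other genes lie beyond the range of 2 log2 units. Rsad2, Iigp1 and Ifit3 lie below the lower line and Ifnar1 and Ifngr1 above the upper one.

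The medians of type I response genes and gamma-induced GTPases differed by 0.31, with the GTPases lower, where 4 of the 9 GTPases had a value of their own. This gap was 0.14 with shared probe sets included and 0.19 at a stricter floor of 6.18. The ranges of these groups overlapped, from -0.88 to 0.51 in the type I response genes and from -0.70 to -0.12 in the GTPases. The type I response genes lay 0.36 below the signalling genes and the GTPases 0.67 below them. Relative to the signalling genes without their receptor subunits, the type I response genes lay at -0.086 and the GTPases at -0.39. With shared probe sets the GTPases lay at -0.46 relative to all signalling genes. The receptor subunits (0.24 to 0.80) did not overlap with the GTPases, and among 22 type I response genes Trim30a and Dhx58 reached into the receptors' range. Receptor subunits and GTPases with values of their own numbered 4 each, and of all genes at the floor 53.3% were higher and 44.5% lower.

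Presence of ISRE letters did not separate the type I response genes by their differences. The 9 at the floor with ISRE letters had a median of -0.078, and 6 of them were lower, while the 7 without had a median of -0.11 and 5 were lower. Trim30a (0.51) and Rsad2 (-0.88) both hold them, as shown above, and Ifit2 (-0.53) does not. Genes without a window, Zbp1 (-0.54) and Dhx58 (0.32) among them, could not be compared. Over all groups, 10 of 13 genes with ISRE letters were lower (median -0.12), and 8 of 15 without (median -0.014), against 44.5% of all genes. Those without include the 4 receptor subunits.

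The interferon genes themselves were mostly below the floor. Of 16 ligand genes with probe sets of their own, 13 were below it, among them Ifnb1 (1.76 in the labelled KO pool and 2.72 in the WT pool) and Ifng (3.19 and 3.33). Ifnl2, Ifna5 and Ifnz, named after their values were seen, reached it and differed by -0.31, -0.12 and 0.15. Values this low do not show whether an interferon transcript was present, and folds between them have no meaning.

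A list of other core genes of the pathway holds its kinases and inhibitors with a further STAT factor and further receptor chains. Of 10 such genes at the floor 9 were higher, against 53.3% of all genes, and 2 were past 1.5-fold higher, against 6.45%, with a median of 0.24. Jak1 differed by 0.18, Jak2 by 0.23 and Tyk2 by 0.11. Il10rb, a receptor chain shared by interleukin 10 and interferon lambda, was 1.87-fold higher, and Ptpn6, the phosphatase SHP-1 of blood cells, 1.62-fold higher. Socs1, a feedback inhibitor induced by interferon, was the single one lower (-0.20) and is named after its value was seen.

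Sensors of nucleic acid and their adaptors had a median of 0.31, with 4 of 20 past 1.5-fold higher and 0 lower, against 6.45% and 1.9% of all genes. Tlr8 read 5.87 in the labelled KO pool and 4.75 in the WT pool (2.18-fold higher) and Tlr7 5.77 and 4.95 (1.77-fold higher). Both encode endosomal receptors of single-stranded RNA. Sting1, the adaptor of cytosolic DNA sensing, was 1.65-fold higher, and Irf5, chosen after its value was seen, was 1.57-fold higher.

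Interferon target genes outside the set lay on both sides of zero. Of 37 other type I targets at the floor, 16 were lower, 20 higher and 1 equal, with 0 past 1.5-fold and a median of 0.014. The 43.2% that were lower lies close to the 44.5% of all genes. Of 20 other gamma targets 5 were lower and 15 higher, where 53.3% of all genes were higher, with a median of 0.074. B2m, the light chain of MHC class I, was the 1 past 1.5-fold (1.58-fold higher), or 5% against 6.45% of all genes. Chosen after their values were seen, the type I targets Ddx60 (-0.41) and Ifi44l (-0.40) and the guanylate-binding protein genes Gbp9 (-0.47) and Gbp2b (-0.43) were lower, while the membrane proteins Ifitm1 (0.51) and Ifitm2 (0.47) and the immunoproteasome gene Psmb8 (0.46) were higher. On probe sets of their own, Gbp4 (0.069) and Gbp8 (0.12), also named after their values were seen, were slightly higher. A probe set shared by 6 guanylate-binding protein genes, Gbp4, Gbp8 and Gbp9 among them, differed by -0.31.

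**Figure D4:**
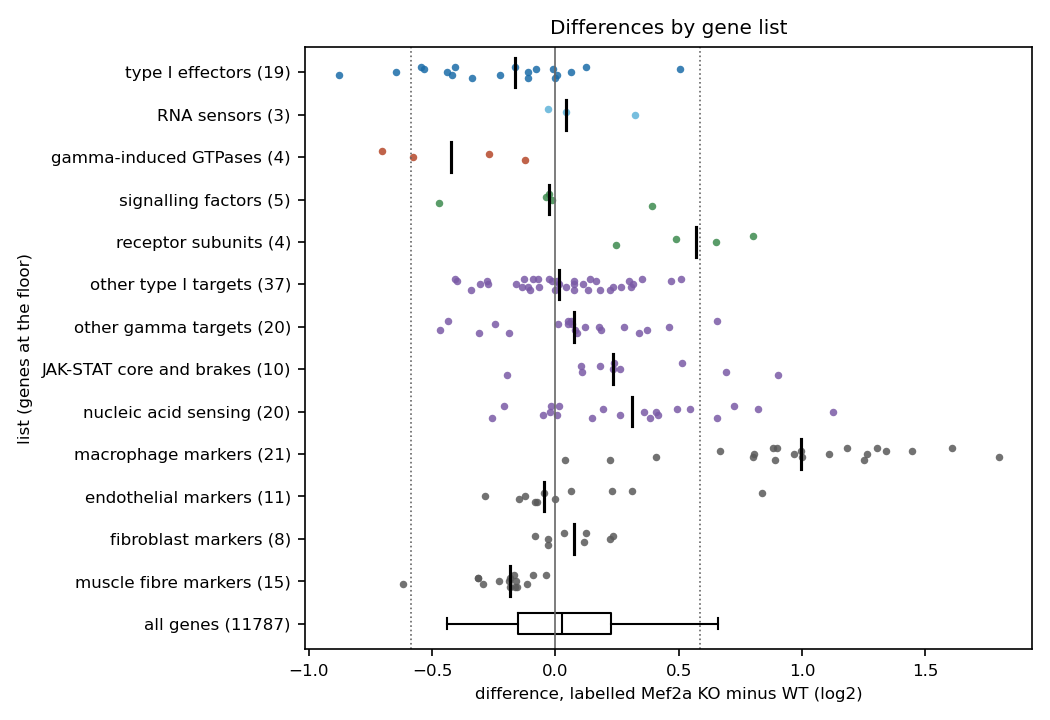
Differences in log2 RMA value, labelled Mef2a KO minus WT, by list, with 1 point per gene at the floor, the number of genes in brackets and a bar at the median. The box for all genes gives the quartiles with whiskers at the 5th and 95th percentiles, and dotted lines mark 1.5-fold. Receptor subunits (median 0.57) and macrophage markers (0.997) lie to the right, and gamma-induced GTPases (-0.42) to the left.

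Markers of macrophages and monocytes were higher in the labelled KO pool, as the receptor subunits were. Of the 31 other interferon-stimulated genes at the floor, 23 were lower, or 74.2% against 44.5% of all genes. Of 22 markers listed, 21 had a probe set of their own, and all 21 were at the floor and higher in the labelled KO pool. Past 1.5-fold higher were 18, and the median was 0.997. Of all genes at the floor 53.3% were higher, and 6.45% past 1.5-fold. The summed signal of these markers on the linear scale was 12989 in the labelled KO pool and 5926 in the WT pool. Over all 19938 genes the sums were 1.71e+06 and 1.64e+06. In bulk RNA, more cells of a type and more RNA per cell cannot be told apart. Macrophages express both the receptors and the target genes, and the part of their markers in the higher receptor values or in any other result was not tested.

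Markers of lymphocytes, which release interferon gamma, of plasmacytoid dendritic cells, which release type I interferon, and of neutrophils lay mostly under the floor. Of T and NK cell genes 0 of 19 reached the floor in either pool, of B cell genes 0 of 5, and of plasmacytoid dendritic cell genes 1 of 5, Siglech, at 4.53 in the labelled KO pool and 4.38 in the WT pool. Among neutrophil genes 1 of 11 reached it, Csf3r (0.38). Endothelial markers had a median of -0.048 and fibroblast markers 0.075. All 15 muscle fibre markers were above the floor, at 8.78 to 12.52 in the labelled KO pool and 9.40 to 12.56 in the WT pool. All 15 were lower in the labelled KO pool, against 44.5% of all genes, with a median difference of -0.18. Myh2 was the 1 past 1.5-fold lower, or 6.67% against 1.9% of all genes. Of 8 satellite cell and myoblast markers 5 were lower, with a median of -0.13. The part of muscle cells in the other results was not tested.

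The arrays themselves put limits on these values. The Mef2a probe set read 9.06 in the labelled KO pool and 8.92 in the WT pool, and since the deleted part is not given, it does not check the genotype labels. Every direction above therefore rests on the labels. RMA values near the floor understate differences, and Rsad2, Cmpk2 and Zbp1 lay close to it in the labelled KO pool.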

How the data were processed

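RNA pooled from 5 mice per genotype was hybridised to 1 Affymetrix array per genotype, per the labels. The authors deposited log2 values that, per the submitters' processing notes, came from RMA as run in Affymetrix Expression Console. No version or setting is named there. RMA forces both arrays to nearly the same distribution, so a change shared by most genes cannot be seen. Array number limits the precision.

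Of 35557 probe sets, 21789 had 1 gene symbol in the platform annotation, 1621 several and 12147 none. Those with 1 symbol gave 19938 genes, of which 11787 reached the floor. Differences were taken without a test (Python 3.11.15, numpy 2.4.6, pandas 2.3.3) and counted past 1.5-fold. The counting and the motif search were tested on simulated data. The genes were chosen by symbol, with no limit set on their values, but they and the lists were chosen with earlier results of these data known. All 45 genes could be named. Of other pathway lists, up to 3 genes each way past 1.5-fold were named, with the kinases, Ifnb1 and Ifng, and others are marked as named after their values were seen. Alternatives were median-centred differences, probe sets averaged per gene, a loess trend removed (span 0.3, statsmodels 0.14.6), other floors and fold limits, shared probe sets, and groups without some members. Median shifts over 0.1, or gene shifts over the robust SD of 0.28, counted as moved.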

Additional observations from a re-analysis of the deposited data

How the results depend on the processing

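With 1 array per genotype, no spread between mice or arrays is known, and every count and median describes these arrays alone. No paired analysis was possible because each genotype has 1 array. Median-centring, removal of the loess trend, the mean of all probe sets, no floor and a floor from olfactory receptor genes (3.54) moved no count by over 1.5 times and no group median by over 0.1. A stricter floor of 6.18, the upper quartile of the table, left 20 genes, fewer by construction, with 1 past 1.5-fold lower and 12 lower by any amount. The GTPase median was then -0.27, and the type I response genes lay 0.19 above it. With shared probe sets included, the GTPase median was -0.22, or 0.14 below the type I response genes and -0.46 relative to the signalling genes, and Oas1a turned to 0.15. With a limit of 0.32 log2 units, 11 genes were lower and 6 higher (10.3% and 16.7% of all genes), and at 2-fold 0 and 0 (0.187% and 1.7%). Gbp3 passed 1.5-fold in 2 of 7 alternatives, while Rsad2, Ifit3, Iigp1, Ifnar1 and Ifngr1 did so in each that counted them. Without the receptor subunits, an alternative chosen after seeing the data, the signalling median was -0.027, the type I response genes lay at -0.086 relative to it and the GTPases at -0.39.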
